A study of Mus musculus with 8 samples.

Results

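The 10 genes described here encode products of Paneth cells, the granule-filled cells at the base of the small-intestinal crypt. They are the lysozymes Lyz1 and Lyz2, the alpha-defensin Defa21, the protease Mmp7, the angiogenin-family ribonucleases Ang4, Ang2 and Ang6, the lectin Itln1, the phospholipase Pla2g2a and the ligand Wnt3. Of these, 9 were found by gene name, or an older alias, among the non-control probes of an Agilent mouse array. Ang6 was found through a RefSeq transcript listed for a probe that the array names Ang3. In all, 13 probes stood for the 10 genes, and the brightest probe stood for each. All 10 passed the filter on dim probes (well above background in either colour on 2 or more arrays), which kept 19334 genes. Paneth cells secrete antimicrobial proteins into the crypt lumen and also supply Wnt and Notch signals to the stem cells between them. The antimicrobial programme is known to depend on Wnt signalling, which acts through beta-catenin and TCF/LEF factors such as Tcf7l2. Ascl2, a transcription factor with a basic helix-loop-helix domain, is expressed in the stem cells.

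Mouse small-intestinal organoids, crypt-like epithelial cultures, were profiled on 8 arrays with 2 colours, 1 for the organoids under study and 1 for a control culture. Every culture, controls included, received a 16 h pulse of 4OH-tamoxifen. In experiment 1, organoids transduced with CMV-driven Ascl2, with RNA taken after 24 h, were set against VillinCreERT2 organoids on 2 arrays with the dyes swapped. In experiment 2, organoids labelled Ascl2 over expressing, Tcf7l2null with Ascl2 overexpression, and Tcf7l2null were each set on 1 array against organoids transduced with dsGFP, in which tamoxifen induced GFP. In experiment 3, Ascl2null organoids were set against VillinCreERT2 organoids on 1 array. A self-self array, with control RNA in both colours, was run in experiments 2 and 3. For the control of experiment 3 the description names Ascl2loxp/loxp organoids and the genotype field VillinCreERT2. The labels give no promoter for Ascl2 in experiment 2 and do not say whether any culture was a single clone. They give a time of RNA extraction for experiment 1 only. Each experiment lay on a slide of its own, so slide and experiment cannot be told apart.

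The probe for Ascl2 itself gave log2 ratios of -0.31 and 0.01 on the arrays of experiment 1, -0.68 on the Ascl2 overexpression array of experiment 2, -0.92 with Tcf7l2null and Ascl2 overexpression, and -1.07 on the Ascl2null array. It was therefore not above the control by more than 0.01 on any array labelled as overexpressing Ascl2. The sources used here do not state which parts of Ascl2 the construct carries. The probe therefore does not check the label, and each condition is named by its array label. The brightest Tcf7l2 probe stood at -0.35 on the Tcf7l2null array and 0.17 on the array labelled Tcf7l2null with Ascl2 overexpression, beside 0.37 and -0.34 on the self-self arrays. Every direction below rests on the array labels.

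Probes for related genes can bind each other's transcripts, so their sequences were compared. In the lines below, capitals mark the longest run of bases that a probe shares with a probe of another angiogenin. Positions follow the mm9 annotation in the scanner files, with each probe read 5′ to 3′.
Ang4, brighter probe (chr14:52384066-52384125, minus strand): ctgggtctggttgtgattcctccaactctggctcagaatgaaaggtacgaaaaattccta
Ang4, dimmer probe (chr14:52383665-52383704, minus strand): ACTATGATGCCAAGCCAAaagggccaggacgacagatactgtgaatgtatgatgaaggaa
Ang6 probe, named Ang3 by the array (chr14:44540232-44540291, plus strand): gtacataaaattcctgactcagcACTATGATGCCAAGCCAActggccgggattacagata
Ang2 probe (chr14:51815315-51815374, minus strand): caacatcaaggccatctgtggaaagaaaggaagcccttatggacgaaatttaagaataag
Defa21 probe (chr8:22166004-22166063, plus strand): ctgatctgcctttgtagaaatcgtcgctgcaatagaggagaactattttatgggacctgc
Lyz2, dimmer probe (chr10:116719175-116719234, minus strand): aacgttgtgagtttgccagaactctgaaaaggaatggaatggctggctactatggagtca
The shared run was 18 bases long, between the dimmer Ang4 probe and the Ang6 probe. The Ang6 probe is annotated to a transcript that the array calls Ang3 and was assigned to Ang6 through a second accession listed for it, so it does not separate the 2 genes. It maps to the plus strand, whereas RefSeq places the Ang6 promoter on the minus strand, so the probe may not report Ang6. The array's annotation lists accessions of both Lyz1 and Lyz2 for the Lyz1 probe, and of both Defa21 and Defa22 for the Defa21 probe. Values of these probes may therefore mix related transcripts. The Ang2 probe, the brighter Ang4 probe and the Defa21 probe shared no run of 15 or more bases with a probe of another gene on the array, and the Defa21 probe matched the Defa23 probe at 72.3% of 47 aligned bases.

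The 250 bases before the transcript start were taken from RefSeq (GRCm38.p6), which gave promoters for 8 of the 10 genes. Ang2 and Pla2g2a were not in that table. The promoters were searched on both strands for the TCF/LEF-type motifs CTTTGAT and CTTTGAA and for the E-box CAGCTG. The motif CTTTGAT was present in 3.2% of 32851 promoters, CTTTGAA in 4.5% and CAGCTG in 13.0%. The Defa21 promoter held 2 copies of CTTTGAT, 112 and 72 bases before the start, in capitals here in the reverse orientation.
Defa21 promoter (chr8:21025295-21025544, plus strand): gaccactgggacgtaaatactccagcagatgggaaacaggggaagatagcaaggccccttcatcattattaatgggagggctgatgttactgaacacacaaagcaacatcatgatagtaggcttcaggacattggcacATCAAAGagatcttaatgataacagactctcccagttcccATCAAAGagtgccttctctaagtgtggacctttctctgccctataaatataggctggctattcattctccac
The motif was present in 13 of 16 alpha-defensin promoters (81.2%), and 9 of the 16 held at least 2 copies, against 0.082% of all promoters. Part of these promoters are close copies of that of Defa21: Defa22 was identical over all 250 bases, Defa2 and Defa20 were 98.0% identical and Defa32 96.4%. The others ranged from 81.1% for Defa35 to 48.9% for Defa42 and Defa43, no closer than Defa21 was to Mmp7 (48.9%). None of the promoters of Lyz1, Lyz2, Ang4, Ang6, Itln1 and Wnt3 held any of the 3 motifs in this window. Mmp7 has 2 annotated starts, and CTTTGAT was found only in the window of the second, which lies after the first. The proximal promoters of the 2 lysozyme genes, neighbours on chromosome 10, are shown because they were the most alike among the promoters of the 10 genes. They were 79.4% identical over their alignment, and capitals mark a shared run of 50 bases that ends at the start site.
Lyz1 promoter (chr10:117292869-117293118, minus strand): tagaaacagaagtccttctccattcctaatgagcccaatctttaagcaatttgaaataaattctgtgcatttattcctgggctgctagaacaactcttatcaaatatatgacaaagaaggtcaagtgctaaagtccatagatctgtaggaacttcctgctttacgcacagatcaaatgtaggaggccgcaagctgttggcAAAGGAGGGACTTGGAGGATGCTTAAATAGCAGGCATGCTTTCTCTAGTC
Lyz2 promoter (chr10:117282273-117282522, minus strand): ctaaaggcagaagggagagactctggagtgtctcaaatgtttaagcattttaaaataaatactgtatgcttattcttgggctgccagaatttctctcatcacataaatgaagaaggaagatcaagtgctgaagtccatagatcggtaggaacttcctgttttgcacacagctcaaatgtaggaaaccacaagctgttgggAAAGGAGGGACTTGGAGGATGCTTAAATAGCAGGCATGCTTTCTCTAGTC

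The Paneth genes were lower on both arrays of experiment 2 labelled as overexpressing Ascl2, and lay between -0.44 and 1.29 on the log2 scale on the Ascl2 overexpression arrays of experiment 1, with Defa21 below the control on both. With Ascl2null they divided, with Defa21 higher and the angiogenins and Wnt3 lower. On the Tcf7l2null array none differed 2-fold. The log2 ratios, own RNA over control and before the dye term, are given first for each gene. Values after it come from a linear model fitted to all genes, which subtracts a dye term, the part of a ratio that follows the colour rather than the RNA. In these bulk cultures fewer Paneth cells and less RNA per Paneth cell cannot be told apart.

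**Figure D1:**
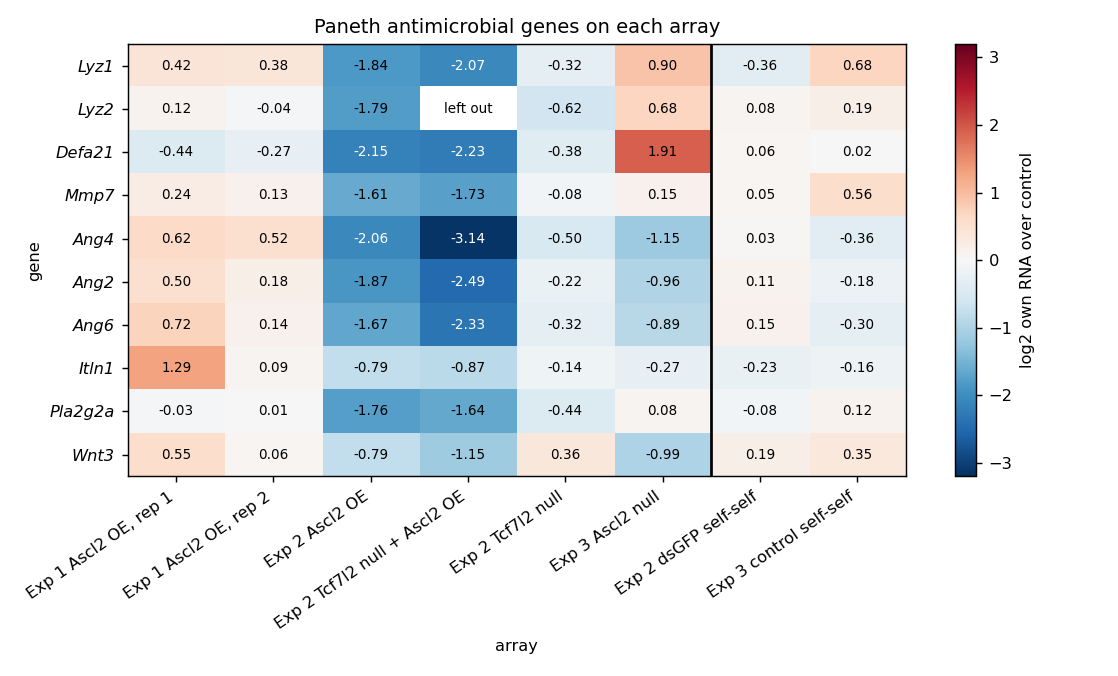
Log2 ratio of own RNA over control RNA (colour and printed value, before the dye term) for each of the 10 genes (rows) on each of the 8 arrays (columns); the self-self arrays stand right of the black line, where the ratio is Cy5 over Cy3. The columns of the 2 experiment 2 arrays labelled with Ascl2 overexpression are negative for every measured gene, while the experiment 1 columns run from -0.44 to 1.29.

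Lysozymes cleave the peptidoglycan of bacterial walls. Lyz1, the Paneth cell form, had log2 ratios of 0.42 and 0.38 in experiment 1. In experiment 2 it stood at -1.84 with Ascl2 overexpression, -2.07 with Tcf7l2null and Ascl2 overexpression, and -0.32 with Tcf7l2null, against -0.36 on that experiment's self-self array. With Ascl2null it was 0.90, against 0.68 on the self-self array of experiment 3. The 2 experiment 2 arrays labelled with Ascl2 overexpression were the lowest, and the Ascl2null value lay above its self-self value by less than the residual SD of this gene in the fit (0.33). The brighter Lyz2 probe, of the lysozyme best known from macrophages, had 0.12 and -0.04 in experiment 1, -1.79 with Ascl2 overexpression in experiment 2, -0.62 with Tcf7l2null and 0.68 with Ascl2null, against 0.08 and 0.19 on the self-self arrays. Its spot on the array of Tcf7l2null with Ascl2 overexpression was marked non-uniform by the scanner software and was left out of the fit. The dimmer Lyz2 probe, printed above, gave a normalised intensity between 157 and 226 in the own channel over all arrays, against 20510 to 66580 for the brighter probe, and its ratios ran from -0.17 to 0.19. The probes of Lyz2 therefore disagreed. The array names the brighter one by an Ensembl transcript and the dimmer one by a RefSeq transcript. The pair of lysozymes cannot be fully separated, because the Lyz1 probe lists both.

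Defa21 encodes an alpha-defensin, a small membrane-disrupting peptide that mouse Paneth cells store as a precursor. It had log2 ratios of -0.44 and -0.27 in experiment 1. It stood at -2.15 with Ascl2 overexpression, -2.23 with Tcf7l2null and Ascl2 overexpression, and -0.38 with Tcf7l2null in experiment 2. With Ascl2null it was 1.91, while the self-self arrays gave 0.06 and 0.02. Defa21 was thus the only one of the 10 genes below 0 on both arrays of experiment 1, and the highest on the Ascl2null array. Mmp7, or matrilysin, the protease that cuts alpha-defensin precursors into active peptides in mouse Paneth cells, had 0.24 and 0.13 in experiment 1, -1.61 with Ascl2 overexpression, -1.73 with Tcf7l2null and Ascl2 overexpression, and -0.08 with Tcf7l2null. It was 0.15 on the Ascl2null array, against 0.05 and 0.56 on the self-self arrays. Its ratios moved with those of Defa21 in experiment 2, but not on the Ascl2null array, where Mmp7 lay within the self-self values.

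Angiogenins are secreted ribonucleases, and Ang4 is a microbicidal granule protein of mouse Paneth cells. Ang4, by its brighter probe, had log2 ratios of 0.62 and 0.52 in experiment 1. In experiment 2 it stood at -2.06 with Ascl2 overexpression, -3.14 with Tcf7l2null and Ascl2 overexpression, and -0.50 with Tcf7l2null. It was -1.15 on the Ascl2null array, against 0.03 and -0.36 on the self-self arrays. The value of -3.14 was the lowest ratio of any of the 10 genes on any array. The dimmer Ang4 probe gave 0.72 and 0.14, then -1.80, -2.46, -0.30 and -0.94 in the same order, and -0.13 on the self-self array of experiment 3. Ang2 had 0.50 and 0.18 in experiment 1, -1.87, -2.49 and -0.22 on the same arrays of experiment 2, and -0.96 on the Ascl2null array, against 0.11 and -0.18 on the self-self arrays. The Ang6 probe had 0.72 and 0.14, then -1.67, -2.33 and -0.32, and -0.89 on the Ascl2null array, against 0.15 and -0.30. The Ang6 probe, whose ratios in experiment 1 were like those of the dimmer Ang4 probe, may not report a separate gene. The 3 probes that stand for these genes were above 0 on both arrays of experiment 1. They were below 0 on each of the other 4 arrays that carried an own and a control RNA. Each was lower with Tcf7l2null and Ascl2 overexpression than with Ascl2 overexpression alone, by 1.09 for Ang4, 0.63 for Ang2 and 0.66 for the Ang6 probe on the log2 scale. Among the other 6 genes with a value on both arrays this difference lay between -0.36 and 0.12, and with 1 array each it has no replicate check.

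Itln1, or intelectin, binds sugars of microbial surfaces. It had log2 ratios of 1.29 and 0.09 on the arrays of experiment 1, the widest gap between those arrays among the 10 genes. In experiment 2 it stood at -0.79 with Ascl2 overexpression, -0.87 with Tcf7l2null and Ascl2 overexpression, and -0.14 with Tcf7l2null, and on the Ascl2null array at -0.27, against -0.23 and -0.16 on the self-self arrays. Pla2g2a, a secreted phospholipase that attacks bacterial membranes, had -0.03 and 0.01 in experiment 1, -1.76, -1.64 and -0.44 on the same arrays of experiment 2, and 0.08 on the Ascl2null array, against -0.08 and 0.12 on the self-self arrays. RefSeq lists Pla2g2a as a transcribed pseudogene in its mouse reference, and its probe was among the dimmer ones. Wnt3 is not antimicrobial: it is the Wnt ligand that Paneth cells present to neighbouring stem cells. Wnt3 had 0.55 and 0.06 in experiment 1, -0.79 with Ascl2 overexpression, -1.15 with Tcf7l2null and Ascl2 overexpression, and 0.36 with Tcf7l2null, and on the Ascl2null array -0.99, against 0.19 and 0.35 on the self-self arrays. Wnt3 was the only one of the 10 genes above 0 with Tcf7l2null, by a margin like that of its own self-self ratios.

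**Figure D2:**
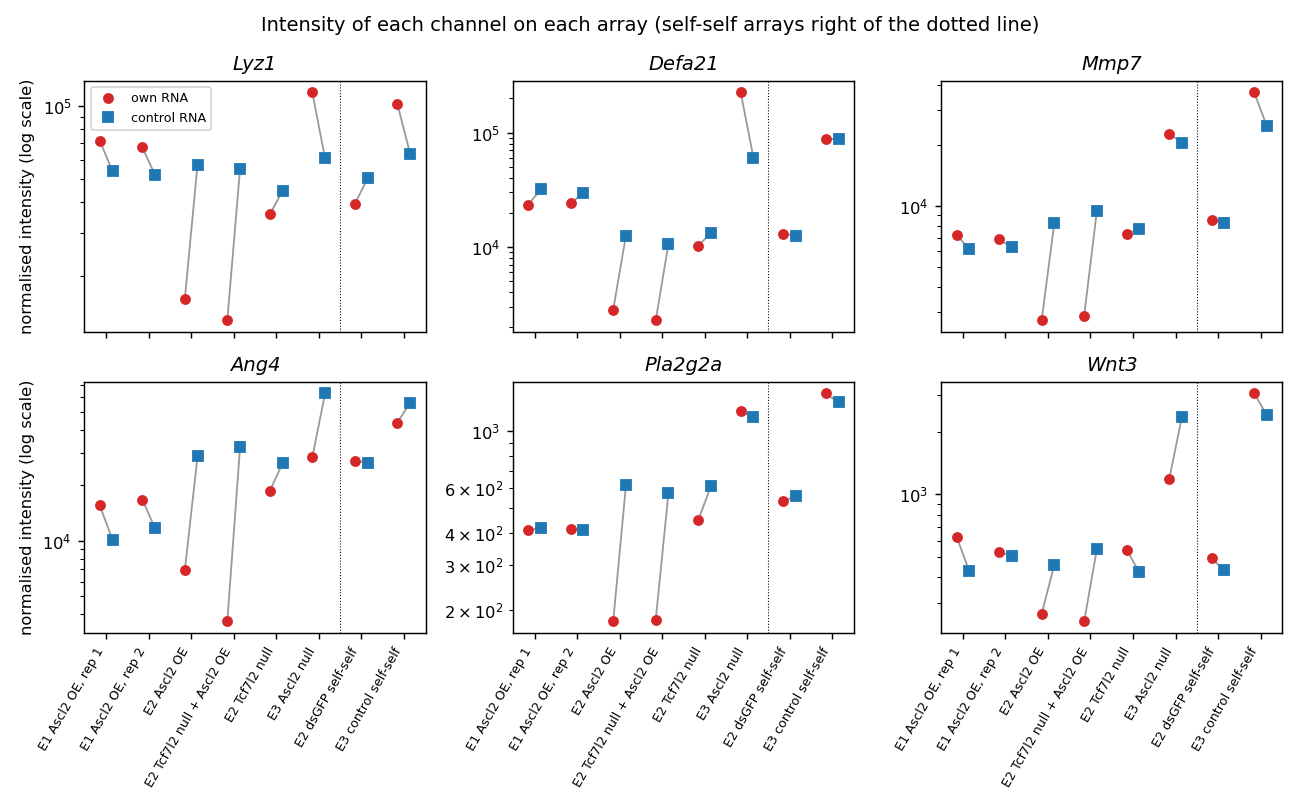
Normalised intensity (log axis) of the own RNA (red circles) and the control RNA (blue squares) for 6 of the genes on each array; on the self-self arrays, right of the dotted line, circles are Cy5 and squares Cy3 of the same RNA. In experiment 2 the circles of the 2 arrays with Ascl2 overexpression lie below the squares, and in experiment 3 both symbols of Wnt3 lie above those of the other experiments.

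The channels show which RNA moved. For Defa21, the own RNA of the 2 experiment 2 arrays with Ascl2 overexpression gave 2826 and 2276 normalised intensity units, against 12560 and 10650 for dsGFP RNA on the same arrays. Over the 4 arrays of experiment 2 dsGFP RNA gave 10650 to 13320. For Ang4, own RNA gave 6892 and 3643, against 28690 and 32170 for dsGFP RNA. For these 2 genes the low ratios came with low signal in the own channel. For the brighter Lyz2 probe the control channel also varied, between 45540 and 71000, and its highest value was on the Ascl2 overexpression array, where own RNA gave 20510. Controls differed between experiments: for Wnt3 the control channel gave 2351 to 2399 units in experiment 3, 422.5 to 545.4 in experiment 2 and 427.7 to 506.5 in experiment 1. For Mmp7 these ranges were 20630 to 24870, 7739 to 9467 and 6116 to 6253. The control organoids of experiment 3 thus gave brighter Wnt3 and Mmp7 spots than both other sets of controls, and slide and culture cannot be told apart in that difference. Controls of experiments 1 and 2 differed too. The brighter Ang4 probe gave 10110 to 11690 units in experiment 1 and 26330 to 32170 in experiment 2, and Ang2 gave 2093 to 2557 and 3723 to 4590. Defa21 went the other way, with 29400 to 31960 in experiment 1 and 10650 to 13320 in experiment 2. For these genes the ratios of experiments 1 and 2 therefore rest on unlike control signals.

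Ascl2 overexpression was first tested over its 3 arrays, which share 1 effect in a limma model of all 8 arrays. No gene passed an adjusted p of 0.05 (Benjamini-Hochberg over 19334 genes), so percent called was 0, and 1326 genes (6.86%) had an unadjusted p under that value. Among the 10 genes this was Defa21 alone, at -0.86 ± 0.33 (SE, n = 3 arrays; limma adjusted p = 0.682). The median of the 10 was -0.29, against 0.00 for all genes, and 9 of the 10 were below 0, against 50.4% of all genes. That value joins unlike experiments: the median was -1.84 in experiment 2 and 0.32 in experiment 1, so without the experiment 2 array the shared value changes sign.

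In experiment 1 alone, 8 of the 10 genes were above 0, against 49.2% of all genes. No gene passed (0%), and 1501 (7.76%) had an unadjusted p under 0.05, among them 6 of the 10: 5 higher (3.4% of all genes) and 1 lower (4.37%). Ang4 was highest among those with close replicates, at 0.57 ± 0.14 (SE, n = 2 arrays; limma adjusted p = 0.265), and Itln1, whose replicates lay far apart, was 0.69 ± 0.25 (adjusted p = 0.527) and -0.11 without replicate 1. Defa21 was -0.36 ± 0.11 (adjusted p = 0.391). The labels do not say that these replicates came from separate cultures, so their p-values measure only a spread that may be technical.

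In experiment 2, Ascl2 overexpression was measured once. After the dye term 9 of the 10 genes were at least 2-fold lower, against 0.912% of all genes, and the remaining one, Itln1, lay just short of it (1.99-fold lower). Defa21 was 4.38-fold lower, Ang4 4.00-fold, Lyz1 3.82-fold, Ang2 3.81-fold and the brighter Lyz2 probe 3.73-fold. Mmp7 was 3.45-fold lower, the Ang6 probe 3.43-fold, Pla2g2a 3.39-fold and Wnt3 2.06-fold. Wnt3 and Itln1 had the smallest differences. The value of Pla2g2a, whose own signal was 180.7 units, moved with the processing: its log2 ratio was -3.32 with the scanner log ratio, against -1.76 here. On the self-self arrays none of the 10 differed 2-fold, against 0.109% of genes in experiment 2 and 0.435% in experiment 3.

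**Figure D3:**
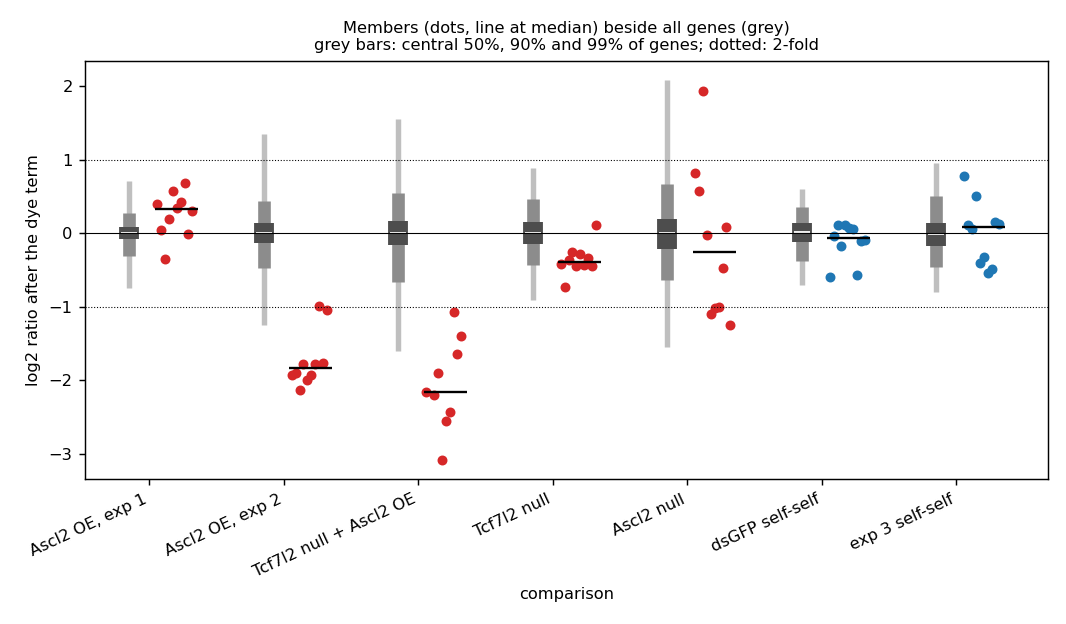
Log2 ratio after the dye term (vertical axis) of the 10 genes (dots, with a line at their median) beside all genes (grey bars over the central 50%, 90% and 99%), for each comparison and, in blue, the self-self arrays; dotted lines mark 2-fold. The dots lie around 0.32 in experiment 1, around -1.84 with Ascl2 overexpression in experiment 2 and around -2.16 with Tcf7l2null and Ascl2 overexpression, and they spread from -1.25 to 1.93 on the Ascl2null array.

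The difference between the experiments was tested directly, as experiment 2 minus experiment 1. It passed for 81 of 19298 genes (0.42%), of which 32 were lower in experiment 2 (0.166%), and 5 of the 10 Paneth genes were among these. Ang4 differed by -2.57 ± 0.26 (SE; limma adjusted p = 0.0246), Ang2 by -2.27 ± 0.24 (adjusted p = 0.0268) and Lyz2 by -1.94 ± 0.19 (adjusted p = 0.0226). Defa21 differed by -1.77 ± 0.20 (adjusted p = 0.0286) and Pla2g2a by -1.75 ± 0.20 (adjusted p = 0.0307). The other 5 had differences between -2.33 and -1.35 and did not pass, with adjusted p from 0.0624 for the Ang6 probe to 0.349 for Itln1. The test sets 1 array of experiment 2 against technical spread, so it does not measure variation between cultures. The experiments also differ in control and slide, and may differ in the time of RNA extraction, which is not stated for experiment 2. Without replicate 1 of experiment 1 none of the 10 passed (17 genes in all), and with median centring in place of loess 0 genes passed.

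With Tcf7l2null and Ascl2 overexpression together, all 9 genes with a value were at least 2-fold lower than dsGFP organoids, against 2.35% of all genes. The median was -2.16, with Ang4 8.49-fold, Ang2 5.88-fold and the Ang6 probe 5.42-fold lower. Defa21 was 4.61-fold lower, Lyz1 4.48-fold, Mmp7 3.75-fold, Pla2g2a 3.12-fold, Wnt3 2.65-fold and Itln1 2.11-fold. With the scanner log ratio Pla2g2a was -3.36, against -1.64 here, on the log2 scale. With Tcf7l2null alone no Paneth gene was 2-fold lower, against 0.321% of genes, although 9 of the 10 were below 0 (50.3% of genes) and their median was -0.39. The most negative of these was Lyz2 at -0.73. The 2 arrays share the control and the dye layout, so their difference asks what the Ascl2 label adds to the Tcf7l2null label: 8 of 9 genes were at least 2-fold lower (4.79% of all genes), with a median of -1.75, from -2.64 for Ang4 to -0.74 for Itln1. These are single arrays, and no test was run on them.

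On the Ascl2null array the 10 genes did not move as a block. Defa21 was 3.82-fold higher, alone among them in passing 2-fold, against 2.41% of all genes. At least 2-fold lower were Wnt3 (2.38-fold), Ang4 (2.13-fold) and Ang2 (2.03-fold), against 1.73% of genes. With a dye term per slide, or without either array of experiment 1, only Wnt3 of these passed 2-fold, and with no dye term only Ang4, while all kept values below 0. The Ang6 probe lay at the 2-fold boundary and did not pass it. There Lyz1 was 0.81 and Lyz2 0.57 on the log2 scale, beside self-self values of 0.78 and 0.11 in the same experiment. Mmp7 (-0.03) and Pla2g2a (0.08) lay near 0. The second Wnt3 probe was -1.57 there, and -0.53 before the dye term on the self-self array.

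A wider list, built around genes of Paneth granules, was also counted. It took alpha-defensins and some beta-defensins by name, and held markers such as the surface protein gene Cd24a and the channel gene Kcnn4. Its counts and median therefore do not describe granule genes alone. Of 24 measured of 29 on the array, 16 were below 0 on the Ascl2 overexpression array of experiment 2, against 49.8% of all genes, and 8 were at least 2-fold lower, against 0.912%. Their median was -0.65. Most changed were Mptx1 (a mucosal pentraxin, -3.06), Reg3a (a C-type lectin, -1.81) and the defensin Defa23 (-1.53). Mptx1 also differed between the experiments, by -3.29 (limma adjusted p = 0.00492). In experiment 1, 18 of the 24 were above 0, against 49.2% of all genes, with a median of 0.07, and Reg3g, a lectin against Gram-positive bacteria that is also made by enterocytes, was highest at 1.24. With Tcf7l2null and Ascl2 overexpression 10 of the 24 were at least 2-fold lower, against 2.35% of all genes, and Mptx1 was -2.93, but Reg3g was 1.53. Reg3g was thus positive on all arrays labelled as overexpressing Ascl2, unlike the 10 genes in experiment 2.

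The other alpha-defensins, a subset taken from that list after its values were seen, had a median of -0.95 with Ascl2 overexpression in experiment 2 and of -0.39 with Tcf7l2null. Defa-rs2, which is counted among them, was not well above background in either colour on any array of experiment 2. All 9 measured were below 0 with Tcf7l2null and Ascl2 overexpression (49.1% of all genes), 6 of them by at least 2-fold (2.35%), and the median was -1.08. With Ascl2null 8 of the 9 were above 0, with a median of 0.39, and 2 were at least 2-fold higher (2.41% of all genes): Defa35 (1.3) and Defa20 (1.25). On the self-self array of experiment 3, 7 of the 9 were above 0, with a median of 0.10, so the count above 0 is near that with no difference in RNA. Angiogenin itself (Ang), named after its value was seen, was -0.94 there and -1.15 with Ascl2 overexpression in experiment 2. Ang, Ang2, Ang4 and the Ang6 probe were all below 0 with Ascl2null. They were also below 0 on the self-self array of experiment 3, at -0.54 for the Ang6 probe, -0.41 for Ang4, -0.33 for Ang2 and -0.30 for Ang. The signs of the families therefore divided in the same way without a difference in RNA, with smaller values, and the difference between the families was not tested.

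Regulators and receptors of Paneth cells, a list that includes Tcf7l2 itself, moved less. The median of 14 was -0.12 on the Ascl2 overexpression array of experiment 2, and 1 of them was at least 2-fold lower (0.912% of all genes). This was Ephb3, the ephrin receptor that keeps Paneth cells at the crypt base, at -1.38. Sox9, a transcription factor that Paneth cells require, was -0.74. With Tcf7l2null and Ascl2 overexpression Ephb3 was -2.61, Sox9 -1.76 and Ephb2 -1.07. On the Ascl2null array Fzd5, a Wnt receptor of Paneth cell maturation, was 1.18, Sox9 -0.90 and Ephb3 -0.85. The self-self array of experiment 3 gave 0.48, -0.38 and 0.44 for these genes. Among the niche signals, the Notch ligand gene Dll1 was -1.75 and Wnt9b -1.09 on the Ascl2null array. Their values on the self-self array of experiment 3 were -0.67 and -0.16. None of the 7 niche signals measured was 2-fold changed in experiment 2. These 7 leave out Wnt3, which is counted with the 10 genes. By its brighter probe Wnt3 was 2.06-fold lower with Ascl2 overexpression in experiment 2 and 2.65-fold lower with Tcf7l2null and Ascl2 overexpression.

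**Figure D4:**
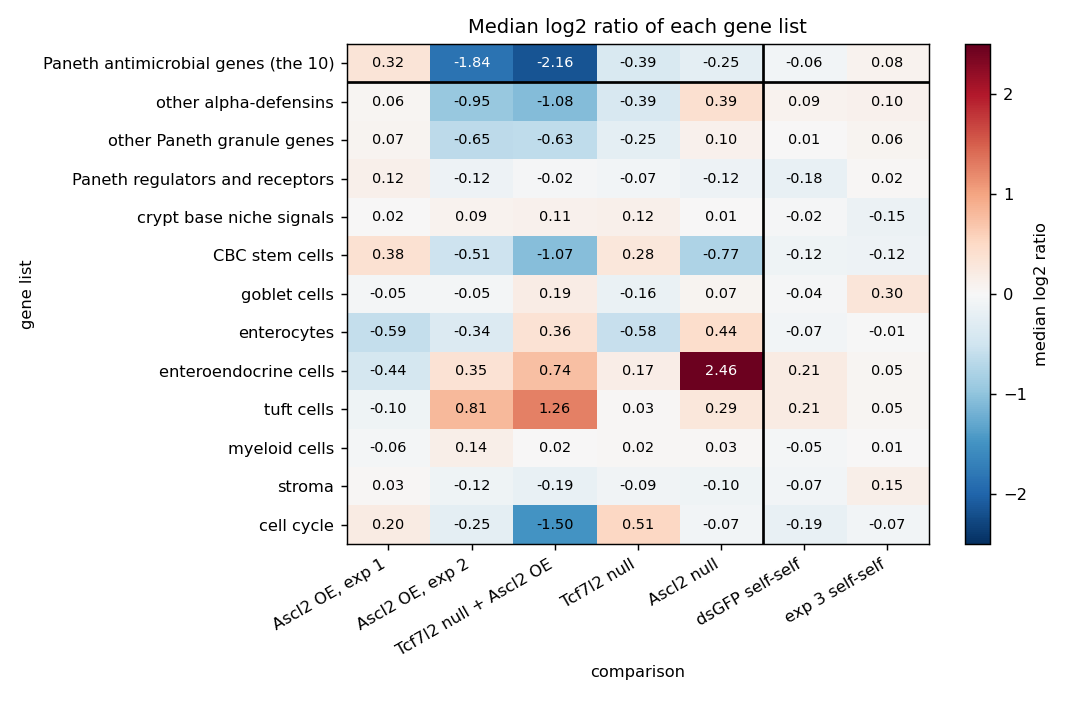
Median log2 ratio after the dye term (colour and printed value) of the 10 Paneth antimicrobial genes (top row) and of 12 other gene lists, for each comparison and the self-self arrays (right of the black line). The top row holds -1.84 and -2.16 for the 2 arrays of experiment 2 with Ascl2 overexpression, while the cell cycle row holds -0.25 and -1.50.

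Other cell types moved with the Paneth genes on some arrays, and their part in the results was not tested. Stem cell markers, a list that includes Ascl2 itself, had a median of 0.38 in experiment 1 and -0.51 with Ascl2 overexpression in experiment 2. Their median was -1.07 with Tcf7l2null and Ascl2 overexpression, and -0.77 with Ascl2null. Lgr5 was -2.11, Olfm4 -2.06 and Cdca7 -1.33 on the Ascl2 overexpression array of experiment 2. There 4 of the 14 stem cell markers were at least 2-fold lower (0.912% of all genes) and 1 was at least 2-fold higher (1.02%). Cell cycle genes were below 0 for all 14 measured with Tcf7l2null and Ascl2 overexpression (49.1% of all genes), with a median of -1.50. Of these 14, 10 were at least 2-fold lower (2.35% of all genes). With Ascl2 overexpression alone in experiment 2, 0 of 15 were 2-fold lower (0.912% of all genes), with a median of -0.25. Tuft cell markers had medians of 0.81 and 1.26 on these arrays, without and with the Tcf7l2null label. On the Ascl2null array 9 of 14 enteroendocrine markers were at least 2-fold higher (median 2.46), against 2.41% of all genes. Another 2 of the 14 were at least 2-fold lower there, against 1.73% of all genes, so the list did not move as a block. With Ascl2 overexpression in experiment 2, 5 of the 14 were at least 2-fold higher, against 1.02% of genes. These were led by the hormone genes Gcg (4.09), Gip (3.79) and Sst (3.35), while 1 of the 14 was at least 2-fold lower (0.912% of genes). Enterocyte markers were below 0 for all 16 in experiment 1 (50.8% of all genes), with a median of -0.59. Their median was -0.34 with Ascl2 overexpression in experiment 2. With Ascl2null 6 of the 16 were at least 2-fold higher (2.41% of all genes). Myeloid markers, listed because macrophages make Lyz2, numbered 9 of 15 above the filter, and 0 of them was 2-fold changed on any array.

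Over the 8 arrays, which share controls, Pearson's r of a gene with the median of the other 9 was 0.96 for Mmp7, 0.95 for Pla2g2a, 0.93 for Ang2 and 0.91 for both Ang4 and the Ang6 probe. It was 0.90 for Lyz1, 0.83 for Lyz2 over 7 arrays, 0.74 for Itln1 and 0.71 for both Wnt3 and Defa21. The genes outside the 10 whose ratios were most like the median of the 10 were 1600014C23Rik (r = 0.98), the RING finger gene Rnf212 (0.98), the growth factor receptor gene Fgfr4 (0.97), Rgcc (0.96) and the kinase gene Hunk (0.96). Rgcc, a cell cycle regulator, had the widest range of the 5, at -4.54 with Ascl2 overexpression and -4.41 with Tcf7l2null and Ascl2 overexpression in experiment 2, and near 0 in experiment 1. These correlations describe 8 arrays and lean on 2 of them, which share a control and a slide. The median of the 10 was -1.78 with Ascl2 overexpression in experiment 2 and -2.07 with Tcf7l2null and Ascl2 overexpression. On the other arrays it lay between -0.32 and 0.46.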

How the data were processed

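The deposited scanner files hold a spot intensity and a local background intensity per colour. Agilent Feature Extraction 10.5.1.1 produced them, on an mm9 annotation, per the file headers; 500 ng of RNA was labelled, per the labels. The files also hold a log10 ratio after the scanner software's own correction, and a value table deposited by the authors gives log2 ratios; both were used as alternatives. The sources used here do not state how that table was made, and replicate 2 of experiment 1 was turned in it.

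Median intensities were background-corrected with normexp (offset 50) and normalised by loess within each array (R 4.3.3, limma 3.58.1), which hides a change shared by all genes. Spots with a feature outlier flag were left out. Of 41174 probes, 27617 passed the filter. RefSeq's table for GRCm38.p6 updated gene names. The limma models held a dye term and an effect per condition, with 3 residual degrees of freedom for the shared Ascl2 effect and 2 for the effect per experiment. Two-sided tests were adjusted by Benjamini-Hochberg across every gene tested, at 0.05. Conditions with 1 array have no test, and 2-fold (log2 of 1) was used to count. Intensities per channel were made comparable by quantile normalisation of average intensity. In simulated data for the shared Ascl2 effect (19086 genes), 82.8% of genes changed by 1 on the log2 scale were recovered. The simulation gave both experiments the same effect, whereas the experiments differed here. It therefore does not tell how many changed genes the test would recover in these data. Precision is limited by the number of arrays. The members, lists and tests were chosen with earlier results of these data known. From each list at most the 3 most changed genes per comparison are named. The likeness rule took the 5 genes with the highest correlation among those with a standard deviation of at least 0.5. The alternatives were median centring, an offset of 10, scanner and deposited ratios, no filter or a stricter one, the median over probes, other dye terms and leaving out arrays. Figures used matplotlib 3.10.9.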

Additional observations from a re-analysis of the deposited data

Results flagged for a closer look

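For 5 of the 10 genes the effect labelled Ascl2 overexpression differed between the experiments by its own test (limma, Benjamini-Hochberg over 19298 genes). That test has 1 array in experiment 2 and a spread that may be technical, and 0 of the 10 passed without replicate 1 of experiment 1 or with median centring. Ang4 stood at -2.0 in experiment 2 and 0.57 in experiment 1, a difference of -2.57 (adjusted p = 0.0246). Ang2 stood at -1.93 and 0.34, a difference of -2.27 (adjusted p = 0.0268). Lyz2, by its brighter probe, stood at -1.90 and 0.04, a difference of -1.94 (adjusted p = 0.0226). With probes required to be well above background on all 8 arrays its dimmer probe stands for the gene, and the difference was -0.29. Defa21 stood at -2.13 and -0.36, a difference of -1.77 (adjusted p = 0.0286), and was the only gene of the 5 below 0 on every array of both. Pla2g2a, a dim probe, stood at -1.76 and -0.01, a difference of -1.75 (adjusted p = 0.0307). Each was lower on the single array of experiment 2 than on both arrays of experiment 1. The experiments differ in control organoids and slide, and may differ in the time of RNA extraction, which is not stated for experiment 2. What sets them apart was not tested.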

How the results depend on the processing

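No value past a threshold changed its direction under the alternatives run, but the median for the shared Ascl2 effect, which did not pass, became positive without the experiment 2 array. Own and control RNA were paired on each array through the ratio itself. No further pairing of arrays was made between groups, most of which have 1 array. With median centring in place of loess, the median of the 10 genes was -0.44 for the shared Ascl2 effect, -2.36 in experiment 2, -2.36 for experiment 2 minus experiment 1 (0 genes and 0 of the 10 past the adjusted threshold), -0.48 for Tcf7l2null and -0.91 for Ascl2null, where 5 of the 10 were 2-fold lower. With an offset of 10, 9 genes passed in experiment 1, and the difference between experiments had a median of -2.05, with 199 genes and 9 of the 10 passing; Ascl2 added to Tcf7l2null gave -1.85. With the scanner's log ratio these were 2 genes, -2.14, 1 of the 10 and -2.07, and Ascl2null gave -0.34. With the authors' deposited values they were 18 genes, -2.07, 145 genes, 2 of the 10 and -1.96, and Ascl2null gave -0.44. With probes well above background on all 8 arrays, 2 genes passed in experiment 1, and the medians were -1.87 for the difference and -2.03 for Tcf7l2null with Ascl2 overexpression; the median over all probes gave -1.87 and -2.03. A dye term per slide gave -0.072 for the shared effect, -1.75 in experiment 2, -1.87 for the difference (no test, with no residual degrees of freedom), -1.78 for Tcf7l2null with Ascl2 overexpression and 1 gene 2-fold lower with Ascl2null. Without a dye term these were -0.37 for the shared effect, 3 genes in experiment 1, -1.81 for the difference with 180 genes and 8 of the 10 passing, -2.07 for Tcf7l2null with Ascl2 overexpression, and -0.094 with 1 gene 2-fold lower for Ascl2null. Leaving out 1 array gave -0.77 to 0.32 for the shared effect, 0.12 to 0.27 and 3 to 4 genes in experiment 1, 17 to 122 genes and 0 to 7 of the 10 for the difference, and -0.11 with 1 gene 2-fold lower for Ascl2null. Among alternatives chosen after seeing the data, also leaving out background outlier flags gave -2.05 for the difference and -0.073 for Ascl2null, and leaving out no spot gave -2.08 for Tcf7l2null with Ascl2 overexpression. The cause of these shifts was not tested. With 1 array for most conditions, the number of arrays limits what can be told from technical spread.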
